A study of Mus musculus with 11 samples.

Results

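The 9 genes described here carry out and control peptide presentation by MHC class I molecules, and were measured in cells sorted as mouse Tregs. They are H2-K1, H2-D1 and H2-T23, B2m, Tap1, Tap2, Tapbp, Erap1 and Nlrc5, and they were chosen by symbol. All 9 were found among the 14604 genes that the deposited table lists, and all 9 passed the filter on low values that left 13897 genes for testing. Tregs were sorted as live CD4+GITR+CD25+ cells from MC38 tumors, a mouse colon adenocarcinoma line grown as a graft, and from spleens of tumor-bearing mice. Of the 11 RNA libraries, 6 came from spleen and 5 from tumor. The mice labelled WT carry a floxed Cd177 gene (CD177flox/flox) without Cre and gave 3 spleen and 3 tumor libraries. The mice labelled KO carry the same floxed gene with a Foxp3-driven Cre fused to YFP (CD177flox/flox/FOXP3-CreYFP) and gave 3 spleen and 2 tumor libraries. All mice bore MC38 tumors, so no library came from a tumor-free mouse, and the KO mice differ from the WT mice by the Cre as well as by the deletion it makes in Foxp3-expressing cells. The labels give no age or sex for these mice, the methods give them only for purchased C57BL/6 mice, and nothing says that each library came from 1 mouse, so p-values measure the spread between these libraries.

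Class I molecules display peptides from inside the cell to CD8+ T cells and NK cells, and nearly all nucleated cells make them. A heavy chain (the classical H2-K1 and H2-D1, or the nonclassical H2-T23, which encodes Qa-1 and binds NKG2A receptors) pairs with the light chain β2-microglobulin, encoded by B2m. The proteasome cuts proteins, the transporter Tap1-Tap2 carries the fragments into the endoplasmic reticulum, Erap1 trims them there, and tapasin, encoded by Tapbp, holds the empty heavy chain beside the transporter while it is loaded. Nlrc5 is a transactivator that acts on the promoters of most of these genes, and interferons raise it together with them.

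The values are log2(n + 1), where the methods describe n as an estimated count summed by gene symbol. Whether n was divided by transcript length is not stated, so levels are compared between libraries and not between genes. Summed over all genes, n lay between 712832 and 844331 in the spleen libraries and between 1.10316e+06 and 1.30455e+06 in the tumor libraries. The methods give 1 approximate sequencing depth for all libraries alike, but neither the scaling of n nor the reads behind each library is stated. The scaling matters here, because the median difference between tumor and spleen over all tested genes was 0.08 as deposited and -0.44 with equal totals of n. The label Treg was checked against 20 T-cell and Treg genes, all of which were listed. Foxp3, the lineage factor of Tregs, was at 5.98 to 6.75 in spleen and at 4.72 to 6.12 in tumor, and the summed level of the 20 genes was 12.39 to 12.57 in spleen and 11.50 to 12.20 in tumor. Of the 20 genes 15 were lower in tumor, 2 higher (Tnfrsf18, the GITR gene, by 1.08 and Ctla4 by 0.57) and 3 not called (Cd2, Cd3g and Il2ra). The tumor libraries also carried genes of other cells. All 17 listed myeloid markers of a list of 18 were higher in tumor, and their summed level rose from between 8.36 and 9.28 in spleen to between 13.78 and 14.30 in tumor. The 6 listed fibroblast markers, of which 5 were higher, summed to 2.34 to 2.64 in spleen and 9.21 to 10.36 in tumor. Of 10 CD8 and NK markers 6 were higher and 1 lower, with sums of 5.63 to 6.64 in spleen and 7.24 to 8.98 in tumor, and of 8 dendritic cell markers 6 were higher, with sums of 3.32 to 4.599 and 6.07 to 6.52. Over all tested genes 43.1% were called higher in tumor and 35.9% lower. No listed marker was at 0 in any library. All these cells, and tumor cells, express class I genes too, and the part of these cells in the values below was not tested. Markers of other cells were not confined to the tumor libraries. Of 8 listed erythroid and platelet markers 7 were lower in tumor and 1 higher, with sums of 7.20 to 10.06 in spleen and 8.08 to 9.29 in tumor. Of 7 listed B-cell markers 3 were lower and 1 higher, and of 3 tested epithelial markers 1 was lower and 1 higher. In bulk libraries, fewer cells of a type and less RNA per cell cannot be told apart. Cd177 is not listed, and the genotype labels have no check of their own.

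Between tumor and spleen, 8 of the 9 genes differed as deposited (limma, Benjamini-Hochberg over 13897 genes, adjusted p below 0.05), 7 higher and 1 lower in tumor. The same test called 78.9% of all genes, 43.1% as higher and 35.9% as lower, so a call by itself sets no gene apart in this comparison. The median difference over the 9 genes was 0.70 on the log2 scale, against 0.08 over all genes. B2m rose most, and Nlrc5 fell. Tap2 was not called. For 8 of the 9 genes no tumor library overlapped a spleen library, which also held for 63.5% of all tested genes. B2m, H2-D1 and Nlrc5 kept their direction and their call under each of the 27 alternative settings tried. The other 6 genes did not. H2-K1, Tap2 and Erap1 turned lower in tumor with equal totals. H2-K1, Tap1, Tap2 and H2-T23 turned lower with quantile normalization, which forces 1 distribution on all libraries. Under quantile normalization Tapbp and Erap1 stayed above 0 but were no longer called. With median centring H2-K1 was at 0.09 and no longer called.

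**Figure D1:**
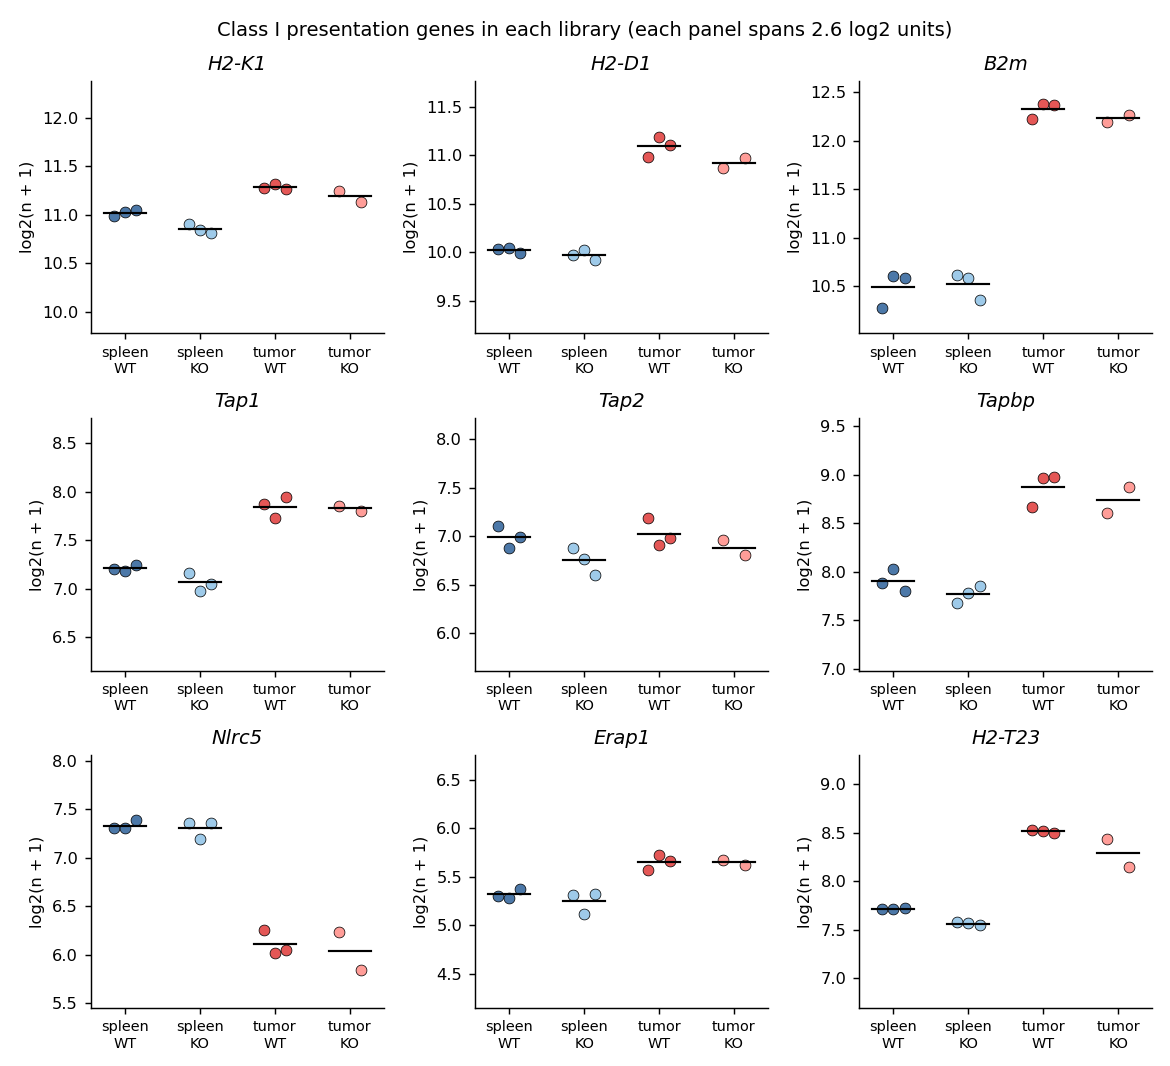
Each panel plots the log2(n + 1) of 1 gene in each of the 11 libraries (points) with the mean of each tissue and genotype (bars), on axes of equal span. B2m, at 12.19 to 12.38 in tumor and 10.28 to 10.62 in spleen, shows the widest gap, Nlrc5 lies lower in tumor, and the Tap2 groups overlap.

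The promoters of H2-K1, H2-D1, B2m, Tap1 and H2-T23 are shown because factors that act on class I genes bind short motifs just before their starts, and because these 5 genes were higher in tumor as deposited while Nlrc5, which acts through such promoters, was lower. With quantile normalization the values of H2-K1, Tap1 and H2-T23 lay below 0, and with equal totals that of H2-K1 did. The sequences are from RefSeq on GRCm38.p6 (mm10), 5′ to 3′ on the strand of the gene. Promoter windows of 250 bases before to 50 after the annotated start were at hand for 7 of the 9 genes, all but Nlrc5 and Tap2. Tapbp and Erap1 were also called higher in tumor as deposited, but their windows are not printed. Capitals mark the kB core (GGGNNTTCC, or its reverse complement), the ISRE core of interferon response (GAAANNGAA), the core of the X2 box (TGACG), and the Y box (CCAAT, read ATTGG on the other strand).
H2-K1, chr17:34000348-34000468, minus strand, bases -121 to -1 from the start: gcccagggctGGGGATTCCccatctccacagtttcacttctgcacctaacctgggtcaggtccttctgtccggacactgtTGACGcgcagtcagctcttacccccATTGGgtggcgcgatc
H2-D1, chr17:35262913-35263055, plus strand, bases -181 to -39: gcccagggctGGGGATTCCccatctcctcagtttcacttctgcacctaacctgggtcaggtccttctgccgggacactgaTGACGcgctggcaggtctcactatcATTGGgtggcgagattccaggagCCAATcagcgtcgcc
B2m, chr2:122147538-122147648, plus strand, bases -149 to -39: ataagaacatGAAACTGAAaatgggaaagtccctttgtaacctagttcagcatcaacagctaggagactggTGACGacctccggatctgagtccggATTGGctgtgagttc
Tap1, chr17:34187324-34187484, plus strand, bases -232 to -72: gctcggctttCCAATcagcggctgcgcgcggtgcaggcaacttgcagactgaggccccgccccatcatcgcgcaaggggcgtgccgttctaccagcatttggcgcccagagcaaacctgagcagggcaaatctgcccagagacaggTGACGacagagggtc
H2-T23, chr17:36032739-36032834, minus strand, bases -133 to -38: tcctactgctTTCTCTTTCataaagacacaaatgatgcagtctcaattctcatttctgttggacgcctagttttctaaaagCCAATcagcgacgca

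Each motif was searched on both strands. Only exact matches to the letters given were counted, with N as any base, so a window without a match can still hold a variant of the motif. The X2 core was found in 4 of the 7 windows (B2m, H2-D1, H2-K1 and Tap1), against 20.8% of 32851 promoter windows of the same length. The Y box was found in 6 of 7, against 37.4%. The ISRE core was found in B2m, H2-T23 and Erap1, where 2 overlapping matches lie across the start, against 8.56% of windows. The kB core was found in H2-K1 and H2-D1 only, against 5.82%, and the GAS motif TTCNNNGAA in none of the 7, against 8.30%. In H2-K1, H2-D1 and B2m the X2 core is followed by ATTGG after 20 bases. This arrangement, searched with 19 or 20 bases after the H2-K1 sequence was seen, occurs in 43 of the 32851 windows (0.131%), and 38 genes hold one. Of these 38 genes 27 were tested between tumor and spleen, of which 13 were higher and 7 lower. Over all genes 43.1% were higher and 35.9% lower. The median difference was 0.21 against 0.08 over all genes. H2-K1, from which the arrangement was taken, H2-D1 and B2m are among the 13, so these counts are not independent of the 9 genes. Of the other class I heavy chains, H2-M3 (0.98) is also among the 13, while H2-Q7 (-0.28) is among the 7 lower genes. A match describes the letters in the window and shows no binding.

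**Figure D2:**
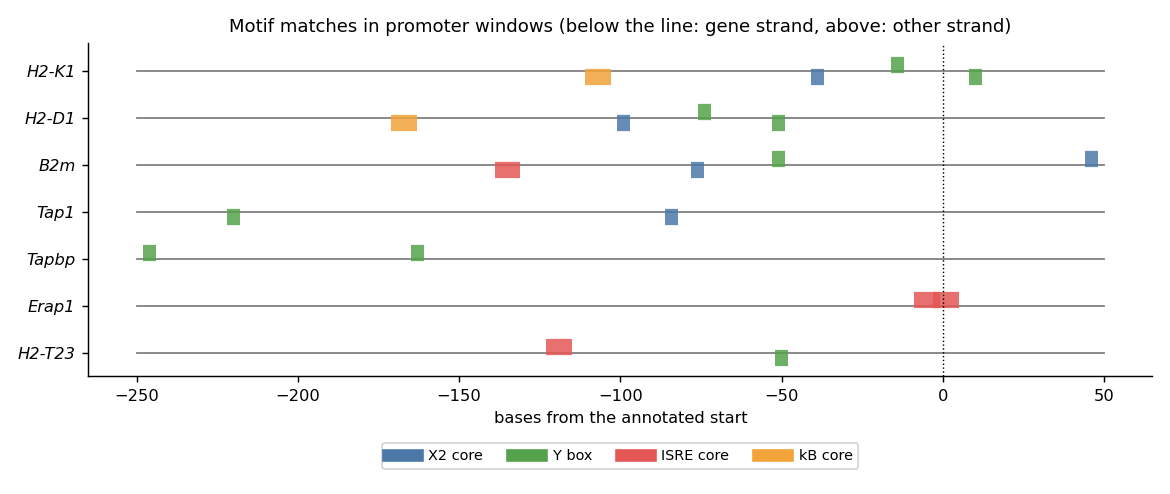
Each line is the promoter window of 1 gene, with the distance in bases from its annotated start on the x axis, and colored blocks are matches to 4 motifs, below the line on the strand of the gene and above it on the other strand. H2-K1, H2-D1 and B2m share an X2 core and a Y box in the same order, and Tapbp has Y boxes only.

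B2m lies on chromosome 2 of GRCm38 from 122147686 to 122153083 on the plus strand (GENCODE M21). Its log2(n + 1) was 12.22, 12.38 and 12.37 in the 3 WT tumor libraries and 12.19 and 12.26 in the 2 KO tumor libraries. In the 6 spleen libraries it ran from 10.28 through a median of 10.59 to 10.62. Each tumor library lay above each spleen library. The spleen mean was 10.51 ± 0.15 (SD, n = 6) and the tumor mean 12.29 ± 0.085 (SD, n = 5), a difference of 1.78 (standard error 0.090, 3.43-fold, adjusted p = 1.73e-09 by limma and Benjamini-Hochberg). By size this difference ranked 1744 of 13897. It was 1.15 with equal totals and 0.63 with quantile normalization, called in both cases. B2m shares no 31-base word with the transcripts of another gene, 31 being the usual word length of kallisto.

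Of the classical heavy chains, H2-D1 rose more than H2-K1. H2-D1 (chromosome 17, 35262730 to 35267499, plus strand) was at 10.98, 11.19 and 11.10 in the WT tumor libraries, at 10.87 and 10.97 in the KO tumor libraries, and at 9.92 to 10.04 in spleen, with a median of 10.01. The tissues did not overlap, and the difference was 1.02 (standard error 0.071, 2.03-fold, adjusted p = 3.08e-08 by limma), or 0.39 with equal totals and 0.31 with quantile normalization, each called. H2-K1 (chromosome 17, 33996017 to 34000347, minus strand) was at 11.27, 11.32 and 11.27 in the WT tumor libraries and at 11.25 and 11.13 in the KO tumor libraries. In spleen it ran from 10.81 through a median of 10.94 to 11.04. The tumor libraries all lay above the spleen libraries as deposited, by 0.31 (standard error 0.075, adjusted p = 0.0020 by limma), but the difference was -0.32 with equal totals and -0.74 with quantile normalization, both called as lower, so its direction depends on the scaling. The nonclassical H2-T23 (chromosome 17, 36029773 to 36032855, minus strand) was at 8.52, 8.51 and 8.50 in the WT tumor libraries, at 8.43 and 8.15 in the KO tumor libraries, and at 7.55 to 7.73 in spleen, with a median of 7.64. Its difference was 0.78 (standard error 0.075, adjusted p = 6.47e-07 by limma), 0.16 and not called with equal totals, and -0.08 and not called with quantile normalization. Other genes share 22.8% of the 31-base words of H2-K1, 26.7% of those of H2-D1 and 24.5% of those of H2-T23, so kallisto could have divided some reads among heavy chain genes.

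A scaling factor common to a library cancels in the difference between 2 genes of that library. H2-D1 minus H2-K1 was -1.05 to -0.82 in the 6 spleen libraries. In the WT tumor libraries it was -0.29, -0.13 and -0.17, and in the KO tumor libraries -0.38 and -0.16. H2-D1 thus gained on H2-K1 by 0.71 in tumor, with no overlap between the tissues (p = 0.0043 in an exact two-sided permutation test, which cannot go lower with 6 and 5 libraries). This pair and the pairs below were chosen after their values were seen, 7 pairs in all, and each of the 7 gave that same p (Benjamini-Hochberg adjusted over the 7 pairs, 0.0043). These p-values therefore only describe the chosen pairs. How many of all gene pairs lack overlap was not counted, while 63.5% of single tested genes did not overlap. Among the tumor libraries H2-D1 minus H2-K1 was lowest in KO replicate 1 and WT replicate 1, the 2 tumor libraries in which the summed T-cell and Treg level was highest, 12.10 and 12.20. With only these 2 tumor libraries, chosen after the data were seen, 7 of the 9 genes were again called higher and 1 lower (71.5% of all genes called, 38.4% higher and 33.1% lower), with 0.92 for H2-D1, 1.70 for B2m and -1.07 for Nlrc5. B2m minus H2-K1 rose by 1.47, from between -0.71 and -0.25 in spleen to between 0.95 and 1.13 in tumor.

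**Figure D3:**
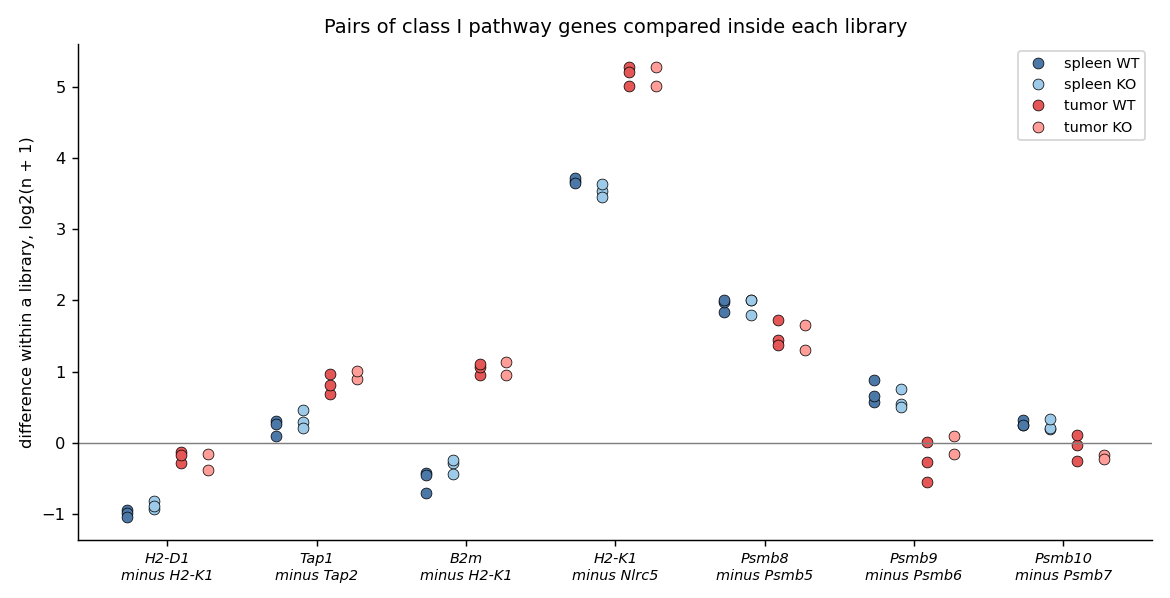
Each point is the difference in log2(n + 1) between 2 genes inside 1 library, colored by tissue and genotype. The x axis holds 7 pairs, chosen after their values were seen. In each pair the tumor and spleen libraries are apart: H2-D1 gains on H2-K1, Tap1 on Tap2, B2m on H2-K1 and H2-K1 on Nlrc5, while Psmb8, Psmb9 and Psmb10 lose against Psmb5, Psmb6 and Psmb7.

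Relative to B2m, all 8 other genes fell in tumor (limma with Benjamini-Hochberg adjustment on values from which the B2m value of each library was subtracted). So did 86.8% of the 13896 genes tested in this way, with 94.0% called in either direction and 7.22% higher. The fall was 0.76 for H2-D1 (-0.76), 0.80 for Tapbp (-0.80), 0.997 for H2-T23 (-0.997), 1.08 for Tap1 (-1.08), 1.41 for Erap1 (-1.41), 1.47 for H2-K1 (-1.47), 1.68 for Tap2 (-1.68) and 3.02 for Nlrc5 (-3.02). The median over the 8 genes was -1.25 and that over all genes -1.70. The light chain thus rose by more than any heavy chain among the 9 genes.

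The subunits of the peptide transporter moved apart. Tap1 (chromosome 17, 34187553 to 34197225, plus strand) was at 7.87, 7.73 and 7.95 in the WT tumor libraries, at 7.85 and 7.80 in the KO tumor libraries, and at 6.98 to 7.25 in spleen, with a median of 7.18. The tissues did not overlap, and the difference was 0.70 (standard error 0.063, adjusted p = 3.48e-07 by limma), 0.08 and not called with equal totals, and -0.08 and not called with quantile normalization. Tap2 (chromosome 17, 34203527 to 34216321, plus strand) was at 7.18, 6.91 and 6.98 in the WT tumor libraries, at 6.96 and 6.80 in the KO tumor libraries, and at 6.60 to 7.11 in spleen, with a median of 6.88. Only 1 of its 5 tumor libraries lay above all spleen libraries, and the difference of 0.10 (95% interval -0.10 to 0.29) did not pass (adjusted p = 0.35 by limma). With equal totals Tap2 was lower in tumor by 0.53 (-0.53, called). Tap1 minus Tap2, also chosen after its values were seen, was 0.10 to 0.45 in spleen and 0.690 to 1.005 in tumor, a gain of 0.60 without overlap. Reads from Psmb9, which overlaps Tap1 on the other strand, and from 2 predicted genes, Gm15821 and Gm20496, that overlap Tap2 cannot be told apart from theirs where the exons overlap if strand was not used, which is not stated.

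Tapbp (chromosome 17, 33915899 to 33929292, plus strand), the tapasin gene, was at 8.67, 8.97 and 8.98 in the WT tumor libraries and at 8.60 and 8.87 in the KO tumor libraries. In spleen it ran from 7.68 through a median of 7.82 to 8.02, below each tumor library. The difference was 0.98 (standard error 0.085, adjusted p = 2.34e-07 by limma), 0.36 and called with equal totals, and 0.12 and not called with quantile normalization. Erap1 (chromosome 13, 74639568 to 74693201, plus strand), the trimming peptidase, was at 5.57, 5.72 and 5.66 in the WT tumor libraries, at 5.67 and 5.62 in the KO tumor libraries, and at 5.12 to 5.38 in spleen, with a median of 5.31. The tissues did not overlap as deposited, where the difference was 0.36 (standard error 0.059, adjusted p = 7.96e-05 by limma). With equal totals it was -0.25 and called as lower, and with quantile normalization 0.04 and not called. Tapbp exons overlap Zbtb22 on the same strand and Gm19412 on the other, and Erap1 exons overlap Cast on the other strand.

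Nlrc5 (chromosome 8, 94434356 to 94527272, plus strand) moved the opposite way. It was at 6.26, 6.02 and 6.05 in the WT tumor libraries and at 6.23 and 5.85 in the KO tumor libraries. In spleen it ran from 7.20 through a median of 7.33 to 7.39. Each tumor library lay below each spleen library, and the difference was -1.24 (standard error 0.075, 2.36-fold lower in tumor, adjusted p = 8.56e-09 by limma). It was -1.86 with equal totals, -1.78 with quantile normalization and -0.75 when libraries were centred on the median of the T-cell and Treg list, and it was called each time. Its exons overlap 9330175E14Rik on the other strand, and it shares no 31-base word with another gene. H2-K1 minus Nlrc5 rose by 1.55, from between 3.45 and 3.73 in spleen to between 5.01 and 5.29 in tumor. The T-cell and Treg list, with 15 of 20 genes lower, had a median difference of -0.71, and its part in the fall of Nlrc5 was not tested.

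**Figure D4:**
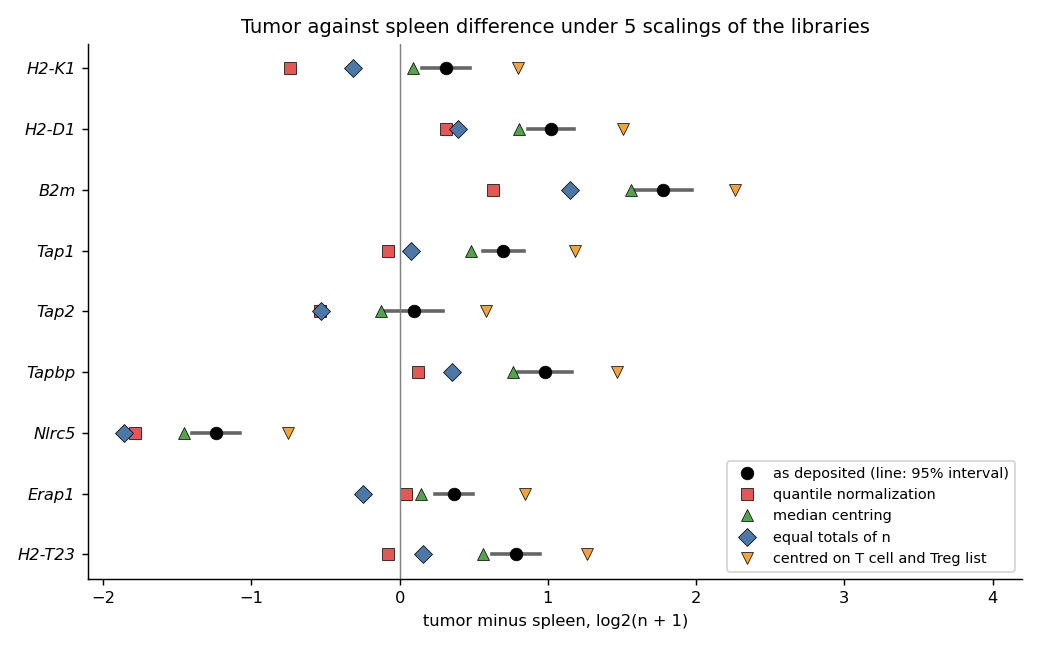
The x axis is the tumor minus spleen difference in log2(n + 1) for each of the 9 genes, as deposited with its 95% interval (black) and under 4 other scalings. B2m and H2-D1 stay above 0 and Nlrc5 stays below 0 under all 5, while H2-K1 runs from -0.74 to 0.80.

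The counts were alike in both genotypes. In WT mice 7 of the 9 genes were called higher and 1 lower (limma, with 70.5% of all genes called), and in KO mice the counts were the same (65.7% of all genes called). B2m rose by 1.83 in WT (standard error 0.13) and by 1.71 in KO (standard error 0.15), and Nlrc5 changed by -1.22 (standard error 0.11) and -1.26 (standard error 0.12). No interaction of tissue and genotype was called for the 9 genes or for any gene (0% of genes, limma with Benjamini-Hochberg adjustment). At an unadjusted p below 0.05 there were 0 of the 9 genes and 383 of all genes. The interaction estimates ran from -0.13 for B2m to 0.13 for Tap1.

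Between KO and WT no gene of the 9 was called in spleen or in tumor (limma with Benjamini-Hochberg adjustment, which called 0% of all genes in spleen and 0.00720% in tumor). At an unadjusted p below 0.05 there was 1 of the 9 in spleen, Tap2, and 1 in tumor, H2-T23, against 281 and 634 of all genes. The mean was lower in KO for 8 of the 9 genes in spleen, where it was lower for 48.1% of all genes, and for 9 of 9 in tumor, against 52.9%, but the genes share libraries and are not replicates. The differences ran from -0.24 to 0.04 in spleen, with a median of -0.13, and from -0.22 to -0.00028 in tumor, with a median of -0.10. KO and WT libraries did not overlap for 4 genes in spleen (H2-K1, Tap1, Tap2 and H2-T23), against 9.17% of all genes, and for 3 in tumor (H2-K1, H2-D1 and H2-T23), against 13.6%. In spleen H2-T23 was at 7.71, 7.71 and 7.73 in the WT libraries and at 7.57, 7.56 and 7.55 in the KO libraries, a difference of -0.16 (95% interval -0.33 to 0.02, adjusted p = 0.9997 by limma). H2-K1 was at 10.98, 11.03 and 11.04 in the WT spleen libraries and at 10.90, 10.84 and 10.81 in the KO spleen libraries, a difference of -0.17 (95% interval -0.38 to 0.05). Ordered by mean, tumor WT came first and spleen KO last for H2-K1, H2-D1, Tap1, Tap2, Tapbp, Erap1 and H2-T23. How many of all genes have this order was not counted. For Erap1 the tumor means were nearly equal (5.64983 in WT and 5.64955 in KO), and its spleen KO mean includes the low replicate 2 (5.12). For Tap2 the spleen WT mean (6.99) lay above the tumor KO mean (6.88). No neighbours of 1 tissue in that order were called, although the unadjusted 95% intervals of Tap2 in spleen (-0.48 to -0.01) and of H2-T23 in tumor (-0.42 to -0.02) left out 0.

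The other class I heavy chains went mostly the opposite way from H2-D1. Of 12 listed genes of a list of 21, 3 were higher, 8 lower and 1, H2-Bl, was not called (-0.44, adjusted p = 0.058 by limma), with a median of -0.43. Over all genes 43.1% were called higher and 35.9% lower. Among the Q-region genes H2-Q4 fell from 8.48 ± 0.11 (SD, n = 6) to 8.05 ± 0.17 (SD, n = 5), H2-Q6 by 0.39 (-0.39) and H2-Q7 by 0.28 (-0.28), which were named after their values were seen. These 3 differences lay slightly above 0 and were not called when libraries were centred on the T-cell and Treg list, and with only the 2 tumor libraries of highest T-cell level those of H2-Q6 and H2-Q7 were -0.04 and 0.02. H2-Q2 fell by 1.04 (-1.04), H2-Q10 by 0.98 (-0.98), H2-T10 by 0.91 (-0.91), H2-T24 by 0.85 (-0.85) and H2-Q1 by 0.50 (-0.50), of which H2-Q1 and H2-Q2 had means of 1.45 and 2.33 in spleen. With the same 2 tumor libraries H2-Q10 was at -0.35 and H2-T10 at -0.40, both called, and H2-Q1 at -0.31 and not called, and with centring on the T-cell and Treg list H2-Q1 (-0.02) and H2-T24 (-0.36) were not called. H2-M3, which presents N-formyl peptides, rose by 0.98 (standard error 0.061), H2-M2 by 3.58 from 0.46 ± 0.24 (SD, n = 6), and H2-T22 by 0.61 as deposited but by nothing with equal totals (-0.01). H2-T10 and H2-T22 moved apart although other genes share 50.7% and 51.0% of their 31-base words, and H2-T22 alone shares 47.6% of those of H2-T10.

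Summed over the 15 listed heavy chains, H2-K1, H2-D1 and H2-T23 included, log2(n + 1) was 12.08 to 12.25 in spleen and 12.44 to 12.63 in tumor. The difference was 0.40 as deposited (exact two-sided permutation test, p = 0.0043), but -0.23 with equal totals and -0.49 with quantile normalization, so the direction of the sum depends on the scaling. The makeup of the sum does not depend on a common factor. The share of H2-D1 in it grew from 22.1% ± 0.78 (SD, n = 6) to 34.2% ± 2.7 (SD, n = 5) in tumor, and that of H2-Q4, H2-Q6 and H2-Q7 together was 26.7% ± 0.57 and 16.0% ± 2.6. The share of H2-K1 was 42.4% ± 0.98 and 39.9% ± 0.52. The H2-D1 share ran from 20.99% to 23.3% in spleen and from 30.7% to 36.7% in tumor, without overlap.

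Of the 7 genes of peptide loading, which act beside Tapbp, 6 were higher and none lower, with a median of 1.05. For all genes the shares were 43.1% higher and 35.9% lower. Canx (calnexin) and Calr (calreticulin), lectin chaperones of the endoplasmic reticulum, rose by 1.51 (standard error 0.094) and 1.35 (standard error 0.076), the oxidoreductase Pdia3 (ERp57) by 1.23, Bcap31 by 1.05 and Hspa5 (BiP) by 0.88, which fell to -0.01 with quantile normalization. Tapbpl, the tapasin-like editor TAPBPR, was not called (0.08, adjusted p = 0.31 by limma). Most of these chaperones serve secreted proteins in general and not class I alone.

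Of the 14 listed genes of peptide supply 10 were higher, 2 lower and 2 not called (Psme3 and Lnpep), with a median of 0.73. Among all genes 43.1% were higher and 35.9% lower. The proteasome subunits Psmb6, Psma1, Psmb7 and Psmb5 rose by 1.66, 1.31, 1.204 and 1.17. The interferon-induced subunits that replace Psmb5, Psmb6 and Psmb7 in the immunoproteasome rose by less as deposited: Psmb8 by 0.73, Psmb9 by 0.83 and Psmb10 by 0.83, with Psmb8 at -0.09 under quantile normalization and 0.10 under equal totals, called in neither. Psmb8 and Psmb9 were named after their values were seen. Inside a library, Psmb8 minus Psmb5 fell by 0.44 (-0.44), Psmb9 minus Psmb6 by 0.83 (-0.83) and Psmb10 minus Psmb7 by 0.38 (-0.38), each without overlap between the tissues. These pairs were also chosen after their values were seen, and non-overlap over all gene pairs was not counted. The cytosolic peptidases Npepps and Tpp2 fell by 0.82 (-0.82) and 0.43 (-0.43), although Npepps lay at -0.33 and Tpp2 at 0.05, neither called, when libraries were centred on the T-cell and Treg list.

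Of the 20 genes of class I transcription and interferon signalling 12 were higher, 6 lower and 2 not called (Nfyb and Socs1), with a median of 0.39. The shares over all genes were 43.1% higher and 35.9% lower. The interferon γ receptor chains Ifngr1 and Ifngr2 rose by 1.44 (standard error 0.15) and 1.33 (standard error 0.13), and Ifnar2, of the type I receptor, by 0.82, with 0.20 and no call under equal totals. The kinase Jak1, which serves both receptors, fell by 0.90 (-0.90, standard error 0.055). Of the RFX complex, with which Nlrc5 acts at class I promoters, Rfx5 and Rfxank fell by 0.57 (-0.57) and 0.73 (-0.73) and Rfxap rose by 0.64 as deposited, with 0.03 and no call under equal totals. Rfx5 was at -0.09 and not called when libraries were centred on the T-cell and Treg list, as were Rfxank (-0.24), Creb1 (-0.15) and Irf9 (-0.09). Creb1 fell by 0.63 (-0.63), Irf9 by 0.57 (-0.57), and Nfya rose by 0.61 as deposited but not with equal totals (-0.01). Irf1, named after its values were seen, rose by 0.56 as deposited, but was at -0.07 with equal totals.

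Of the 7 listed class I-like genes of a list of 12, 5 were higher and 2 lower, with a median of 0.61. Fcgrt, the heavy chain of the neonatal Fc receptor, which pairs with B2m, had a spleen mean of 2.71 ± 0.45 (SD, n = 6) and a higher tumor mean of 6.01 ± 0.28 (SD, n = 5), and Hfe, which also pairs with B2m and acts in iron balance, rose by 1.94. Raet1e, a ligand of NKG2D, rose by 2.09, Mr1, which presents vitamin B metabolites, by 0.61, and Ulbp1 by 0.32 as deposited, with 0.04 and -0.25 under equal totals, neither called. Cd1d1, which presents lipids to NKT cells, and H60b, another ligand of NKG2D, fell by 1.25 (-1.25) and 1.99 (-1.99). Over the 5 lists together, 36 of 60 listed genes were called higher and 18 lower, against 43.1% and 35.9% of all genes, with a median of 0.42 against 0.08.

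**Figure D5:**
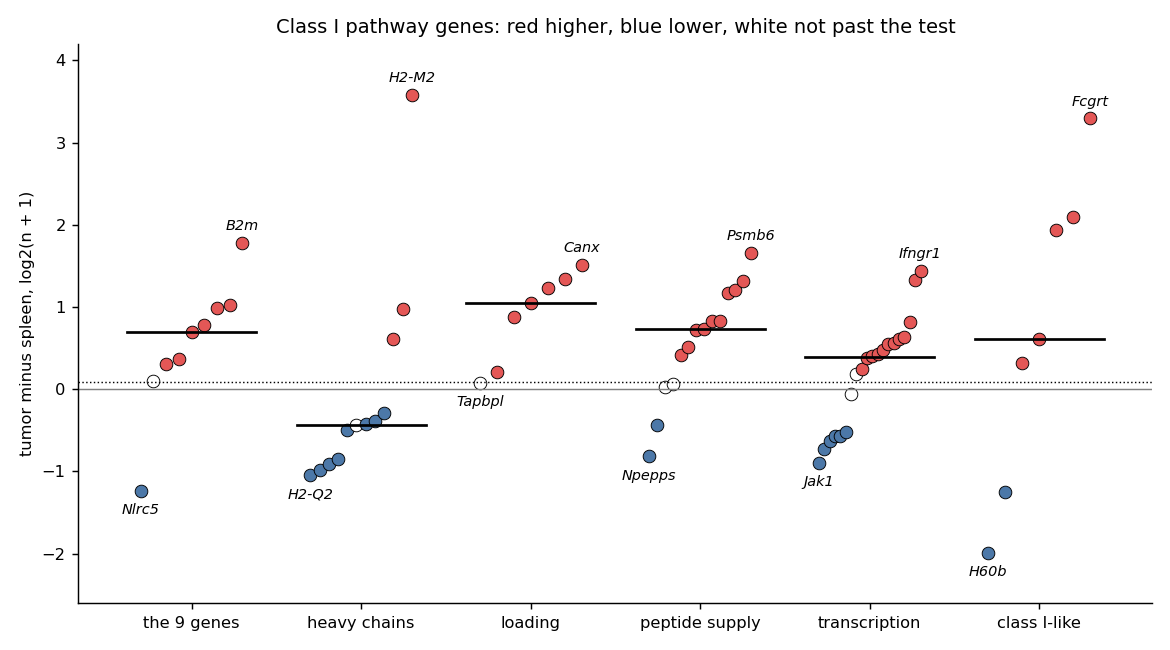
Each point is 1 gene, placed by list on the x axis and by its tumor minus spleen difference in log2(n + 1) on the y axis, red if called higher, blue if called lower and white if not called, with list medians as bars and the median of all tested genes as a dotted line. The heavy chain list has its median at -0.43, while the loading list has its median at 1.05.

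Over the 11 libraries the genes whose levels were most like those of the 9 genes, by Pearson's r, mostly reflect the gap between the tissues. They were Psmb8 (r = 0.99) for Tap1, Vps13a (r = 0.999) for Nlrc5, Emilin1 (r = 0.998) for H2-D1, Myl12a (r = 0.997) for B2m, Plekhf1 (r = 0.995) for Tapbp, Prxl2a (r = 0.991) for H2-T23, Mdfic (r = 0.976) for Erap1, Rftn1 (r = 0.972) for H2-K1 and Zmynd10 (r = 0.856) for Tap2. Taken as deviations from the mean of each tissue and genotype, which removes that gap, the 36 pairs among the 9 genes had r from -0.85 (Tap2 with Tapbp) to 0.79 (Nlrc5 with H2-T23), with a median of 0.11 and 22 pairs above 0. Within groups H2-D1 went with Tapbp (r = 0.71) and against Nlrc5 (r = -0.84), and H2-K1 went with H2-T23 (r = 0.73). The 11 libraries share tissue, scaling and cell makeup, so these values are descriptions.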

How the data were processed

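RNA of sorted Tregs was sequenced in 11 libraries after depletion of ribosomal RNA, and tissue and genotype were read from the titles. The authors quantified single-end reads with kallisto against mm10, summed the estimated counts by gene symbol in sleuth 0.30.0 and deposited log2(n + 1) values. The kallisto version, the annotation and any rescaling of n were not given in the sources used. The methods give only 1 approximate depth for all libraries alike, so no counting interval was computed, and precision rests on the spread of the libraries.

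No further scaling was applied to the log2 values. Genes with a mean of at least 0.5 were kept (13897, with 707 removed) and fitted with limma 3.58.1 in R 4.3.3 (lmFit, eBayes with trend), as 5 tumor against 6 spleen libraries, or with a mean per tissue and genotype for the genotype comparisons. A gene was called at an adjusted p below 0.05 (Benjamini-Hochberg over all genes kept). Sums and pairs of genes were compared with scipy 1.17.1 (permutation tests, exact and two-sided). The procedure was first tested on simulated data. Because of the added 1, changes of low genes come out too small. Alternatives changed the scaling, pseudocount (0.1 or 5), filter, variance model, correction, covariate, replicate block and libraries.

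Positions came from GENCODE M21 on GRCm38, and shared 31-base words from its transcripts. The genes named are the 9 genes, up to 5 called genes per direction in each pathway list with those not called, markers, and the genes most alike, with others marked where they stand. 1 other gene of the lists is not reported here. The 9 genes and the lists were chosen with earlier results of these data known.

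Replicate numbers are shared by the spleen and tumor libraries of a genotype, and spleens came from the same tumor-bearing mice, but which numbers match is not stated. Deviations of same-numbered libraries correlated at r of -0.13 to 0.04 over genes. Spleen and tumor libraries of the same mouse need not deviate alike, so these values cannot decide whether the numbers match. The main fits did not take the numbers as pairs, and fits with the number as a block are given below.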

Additional observations from a re-analysis of the deposited data

Results flagged for a closer look

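In 132 groups of 5 or 6 libraries, 8 had a highest or lowest library far from the others by Dixon's criterion, which chance gives in about 1 of 20 groups. Erap1 was at 5.12 in spleen KO replicate 2, while the other spleen libraries were at 5.28 to 5.38. H2-T23 was at 8.15 in tumor KO replicate 2, while the other tumor libraries were at 8.43 to 8.52. In tumor WT replicate 2, Calr was at 9.35 against 9.14 to 9.20 in the others, and Hspa5 at 9.85 against 9.54 to 9.63. Psmb7 was at 5.35 in spleen KO replicate 3 against 5.54 to 5.59, Tpp2 at 6.06 in spleen WT replicate 1 against 6.22 to 6.31, Nfya at 5.65 in tumor KO replicate 2 against 5.43 to 5.49, and Jak1 at 7.93 in spleen WT replicate 3 against 8.03 to 8.09.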

How the results depend on the processing

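B2m, H2-D1 and Nlrc5 kept direction and call under all 27 alternatives, as did 20 of the 49 other genes named under the 23 or 24 run for each, and all 7 within-library pairs under their 13. Of the 9 genes, quantile normalization left 5 called (2 higher, 3 lower), also 5 in WT and 5 in KO. Over the 13897 tested genes it called 4626 higher and 6358 lower, with 4181 and 5758 in WT and 3865 and 5348 in KO. A required difference of 1 left 3 of the 9 genes, with 3 in WT and 2 in KO. In KO equal totals left 3, with 2593 of all genes called higher and 6900 lower. Bonferroni correction left 4 in WT and 3 in KO. Relative to B2m a required difference of 1 left 5. Of the 60 pathway genes, Bonferroni left 29 and a required difference of 1 left 17. Calls by Bonferroni or by the required difference were not counted over all genes. Of all calls 54.5% were higher as deposited, 42.1% with quantile normalization, 43.7% with median centring, 29.6% with equal totals and 79.2% with centring on the T-cell and Treg list, and the median of all genes moved to -0.16, -0.14, -0.44 and 0.57. The cause was not tested.

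Differences turned with quantile normalization for H2-K1 (-0.74), Tap1 (-0.076), Tap2 (-0.54), H2-T23 (-0.080), Hspa5 (-0.0093), Tapbpl (-0.22), Psme3 (-0.30), Lnpep (-0.41), Socs1 (-0.19), Psmb8 (-0.089), Irf1 (-0.29) and the summed heavy chains (-0.49). They turned with median centring for Tap2 (-0.12), Tapbpl (-0.14), Psme3 (-0.16), Lnpep (-0.19) and Socs1 (-0.029). They turned with equal totals for H2-K1 (-0.32), Tap2 (-0.53), Erap1 (-0.25), H2-T22 (-0.015), Tapbpl (-0.53), Psme3 (-0.56), Lnpep (-0.59), Nfya (-0.0059), Socs1 (-0.43), Ulbp1 (-0.25), Irf1 (-0.070) and the summed heavy chains (-0.23). Equal totals without Gm12896, which held 31.4% to 42.4% of n and was left out after the data were seen, gave H2-K1 -0.31, Tap2 -0.52, Erap1 -0.25 and the summed heavy chains -0.23. Centring on the T-cell and Treg list turned H2-Bl (0.043), Tpp2 (0.051), Nfyb (0.43), H2-Q4 (0.057), H2-Q6 (0.10) and H2-Q7 (0.20), and the 2 tumor libraries of highest T-cell level turned H2-Q7 (0.018).

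With the replicate number as a block, 8 of the 9 genes were again called (H2-K1 0.29, adjusted p = 0.026 from limma), with 7 each in WT and KO, and 52 of the pathway genes. Of all genes 5753 were called higher and 4759 lower, with 5147 and 4094 in WT and 4397 and 3355 in KO. The block left the summed heavy chains at 0.38 (exact sign-flip permutation test, p = 0.0625, the smallest for 5 pairs). The call of H2-Q7 (-0.29 under the block) was also lost without spleen WT replicate 2, tumor WT replicate 2, tumor WT replicate 3 or tumor KO replicate 2, with differences of -0.26 to -0.22.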
